A study of Mus musculus with 8 samples.

Results

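The genes described here are 40 known genes of S phase and mitosis, together with the cyclins and inhibitors that set entry into the cell cycle, measured in dorsal root ganglia (DRG) of mouse embryos at E18.5. They were chosen by symbol for their known roles and not by a measured value, though with earlier results of these data known. All 40 were found among the 55414 genes listed and were kept among the 17721 genes with enough reads to be tested. The 8 libraries, 4 per genotype, were made by bulk RNA-seq from whole ganglia, which hold sensory neurons, glia and other cells. AD1 OE embryos (AdvillinCre/+;Rosa26Dach1/+) carried Cre recombinase at the Advillin gene and a Dach1 copy at Rosa26 that is transcribed after Cre has removed a stop cassette, and Control embryos (Advillin+/+;Rosa26Dach1/+) carried the same Rosa26 allele without Cre, on a mixed C57Bl/6J and CD1 background. Advillin Cre acts in postmitotic sensory neurons, so the cells in which the allele is switched on have already left the cell cycle. Dach1 is normally turned off in most sensory neurons, and in AD1 OE it was switched on again late in development in all of them. The comparison asked what changed in the ganglia. The present values give the levels of cell cycle transcripts in the same libraries.

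A cell that enters the cycle builds D-type and then E-type cyclins, which with their kinases release E2F transcription factors from the retinoblastoma proteins. E2F factors switch on the genes of DNA replication, and a later wave, driven through CHR and CCAAT elements by the MuvB, B-Myb, FOXM1 and NF-Y proteins, switches on the genes of mitosis. In the DRG most neurons leave the cycle early in development, while glia, fibroblasts and vascular cells go on dividing for longer. The inhibitors of the Cip/Kip family (p21, p27 and p57) hold cyclin-dependent kinases back and are also made by cells that no longer divide. DACH1 is known as a repressor of cyclin D1 in cancer cells.

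The letters of these control elements are shown for 5 members because replication and mitosis genes are commonly told apart by them, and because the mitosis members moved together over the libraries, as described further on. The RefSeq promoter windows (GRCm38.p6, 250 bases before to 50 bases after the transcription start, read 5′ to 3′ along the gene) had an entry for 30 of the 40 members. Capitals mark the CCAAT box (CCAAT), the CHR element (TTTGAA or TTCGAA) and an E2F motif (TTTCCCGC, TTTCGCGC, TTTGCCGC or TTTGGCGC) on either strand. The motifs may overlap, and each promoter was counted once per motif.
Mki67, chr7:135716330-135716629, minus strand: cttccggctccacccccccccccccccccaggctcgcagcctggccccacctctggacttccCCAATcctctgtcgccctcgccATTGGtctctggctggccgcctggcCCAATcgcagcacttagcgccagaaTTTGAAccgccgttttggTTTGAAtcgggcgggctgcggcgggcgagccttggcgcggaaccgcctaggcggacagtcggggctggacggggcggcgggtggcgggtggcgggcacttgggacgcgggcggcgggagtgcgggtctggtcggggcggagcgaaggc
Cdk1, chr10:69352863-69353162, minus strand: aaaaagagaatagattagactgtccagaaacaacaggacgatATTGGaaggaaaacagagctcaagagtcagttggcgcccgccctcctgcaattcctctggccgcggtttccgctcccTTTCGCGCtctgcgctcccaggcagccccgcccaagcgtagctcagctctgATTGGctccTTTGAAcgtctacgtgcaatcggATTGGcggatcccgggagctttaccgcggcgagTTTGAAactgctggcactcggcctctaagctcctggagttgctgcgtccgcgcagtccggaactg
Ccnb2, chr9:70421505-70421804, minus strand: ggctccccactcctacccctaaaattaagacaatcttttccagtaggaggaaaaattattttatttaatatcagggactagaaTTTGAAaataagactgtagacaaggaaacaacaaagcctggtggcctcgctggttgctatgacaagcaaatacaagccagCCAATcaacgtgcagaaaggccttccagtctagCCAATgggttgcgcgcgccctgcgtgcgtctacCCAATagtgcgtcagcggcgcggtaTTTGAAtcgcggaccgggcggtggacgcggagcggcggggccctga
Mcm6, chr1:128359656-128359955, minus strand: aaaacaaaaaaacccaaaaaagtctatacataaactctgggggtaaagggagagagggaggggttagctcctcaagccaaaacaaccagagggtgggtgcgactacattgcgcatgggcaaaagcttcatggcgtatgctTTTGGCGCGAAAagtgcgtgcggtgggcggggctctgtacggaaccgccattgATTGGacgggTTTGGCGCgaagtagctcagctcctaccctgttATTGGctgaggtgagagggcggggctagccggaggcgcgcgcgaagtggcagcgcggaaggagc
Cdkn1a, chr17:29093519-29093818, plus strand: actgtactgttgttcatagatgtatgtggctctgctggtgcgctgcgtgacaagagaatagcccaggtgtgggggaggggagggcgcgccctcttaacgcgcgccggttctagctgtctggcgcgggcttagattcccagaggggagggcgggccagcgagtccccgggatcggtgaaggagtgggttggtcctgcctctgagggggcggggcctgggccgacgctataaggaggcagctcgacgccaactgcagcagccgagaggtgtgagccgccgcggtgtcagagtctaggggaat

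Among the 16 mitosis members with an entry, 15 held a CCAAT box and 13 held a CHR element, against 41.1% and 21.7% of all genes in the table. Of the 9 replication members with an entry, 8 held a CCAAT box and 2 a CHR element. An E2F motif stood in 1 of the 16 mitosis members, Cdk1, and in 4 of the 9 replication members, against 2.6% of all genes. In the windows shown, Mki67 held 3 CCAAT boxes and 2 CHR elements, Cdk1 held both and an E2F motif, and Mcm6, a subunit of the replicative helicase, held 3 E2F motifs and no CHR element. Neither window listed for Cdkn1a held any of the searched letters. A match is a run of letters and was not tested as a binding site here.

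Transcripts of all 40 genes were present in every library. The lowest raw count of any member in any library was 198, for Ccnb1, and the highest was 5027, for Cdkn1c. As read counts scaled to library size (CPM, the unit of all levels here), mean levels over the 8 libraries ran from 8.55 for Ccnb1, the cyclin that opens mitosis, to 111 for Top2a, the topoisomerase that untangles replicated chromosomes, with Mki67, the standard marker of cycling cells, at 110.1. Levels of different genes can be compared only per length. The length used was that of all annotated exons of a gene merged, which can exceed that of its main transcript. Ranks between genes therefore depend partly on annotation. Per kilobase of exon, the median member ranked at the 53.9th percentile of all tested genes, and the members spanned the 31.7th percentile (Tyms, thymidylate synthase, 1.84 CPM per kb) to the 95.7th (Cdkn1c, p57, 50.1 CPM per kb). Mki67 lay at 10.9 and Top2a at 12.3 CPM per kb. On the same scale Sox10, the transcription factor of the glial lineage, lay at 36.3, and the neuronal tubulin Tubb3 lay at 918. In whole ganglia, fewer cells of a type and less RNA per cell cannot be told apart, so these are levels of transcripts and not numbers of dividing cells.

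**Figure D1:**
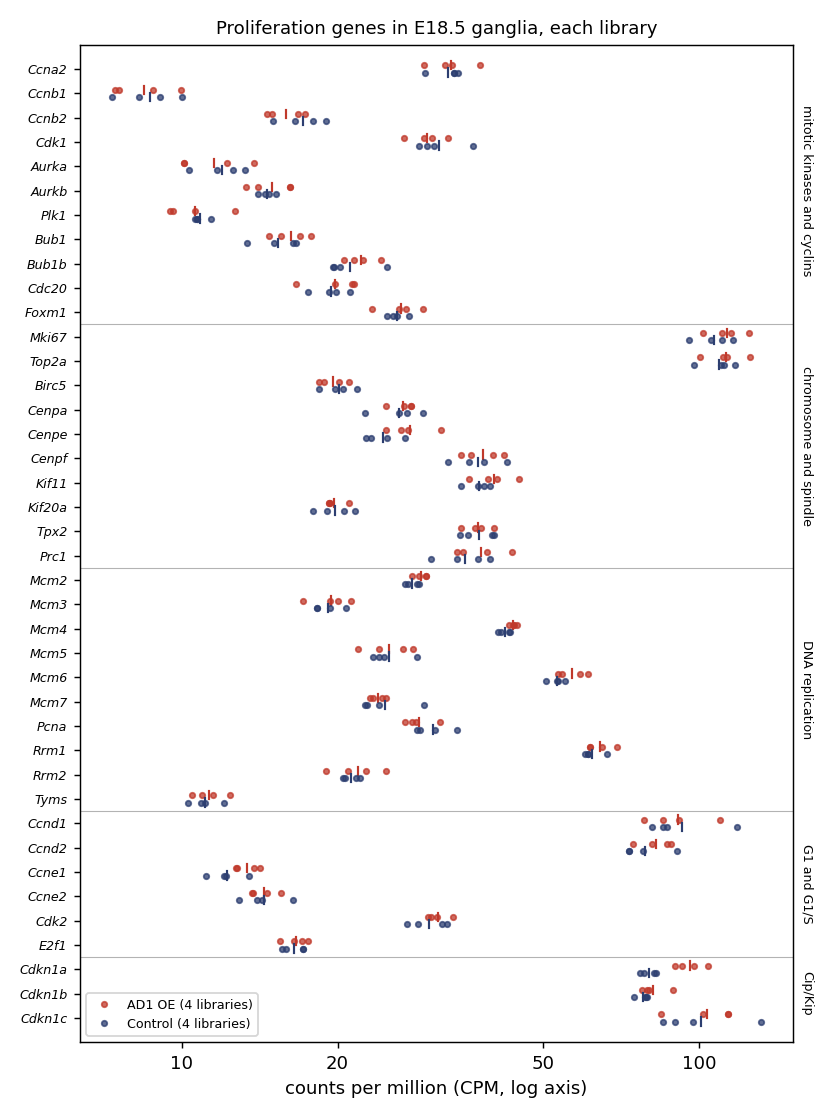
Level of each of the 40 genes (rows, grouped by role) in CPM on a log axis, with a point for each library and a short vertical line at the mean of each group of 4 libraries. The groups overlap in every row except Cdkn1a, where the 4 AD1 OE points (89.9 to 104 CPM) lie above the 4 Control points (76.9 to 82.4 CPM).

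The libraries held 22339059 to 44025625 counts each. Dach1 itself lay at 91.5 to 102 CPM in AD1 OE and at 30.2 to 33.7 CPM in Control, as the labels require. Y-linked genes and Xist showed that 3 AD1 OE libraries (1, 2 and 4) and 1 Control library (4) came from males, and 1 AD1 OE library (3) and 3 Control libraries (1, 2 and 3) from females, so sex was uneven between the genotypes. AD1 OE 2 had the highest summed level of the 7 tested erythroid genes, 812 CPM against 224 to 408 CPM in the other libraries, and Control 1 had the highest summed level of the 5 tested spinal cord genes, 11.2 CPM against 2.55 to 6.35 CPM. AD1 OE 3 had the highest summed level of the 7 tested skeletal muscle genes, 513 CPM against 105.3 to 356 CPM. Over the 8 lists of cell type genes only Avil, the gene that carries Cre, was called between the genotypes (lower in AD1 OE). Of the 8 fibroblast genes, 3 had an unadjusted p under 0.05 and a higher level in AD1 OE and 1 a lower level, and Pdgfra was higher without overlap (log2 fold change 0.23, edgeR adjusted p = 0.0232); their summed level was 6393 to 7166 CPM in AD1 OE and 5505 to 6645 CPM in Control. Of the 12 glial genes, 3 had an unadjusted p under 0.05, all with lower levels in AD1 OE (Fabp7, S100b and Gfap, log2 fold changes of -0.26, -0.14 and -0.78). Such a p was also found in 1 higher and 2 lower of 10 neuronal genes. Macrophage genes had 1 higher and 2 lower of 9, and spinal cord genes 0 higher and 2 lower of 5. The endothelial, erythroid and muscle lists had 0. Over all tested genes 18.6% had such a p. The part of these cells in the members' values was not tested.

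Between the genotypes, a single proliferation gene was called different. Of the 40 members 1, Cdkn1a, was called higher in AD1 OE, and none was called lower. A call required an adjusted p below 0.005 in edgeR's quasi-likelihood test together with a log2 fold change beyond 0.25 in either direction. That is 2.5% of the members, against 2.57% of all 17721 tested genes (0.784% higher and 1.78% lower). Cdkn1a was also the single member with an unadjusted p under 0.05, a level reached by 18.6% of all tested genes, and the single member whose 4 AD1 OE libraries did not overlap the 4 Control libraries, against 13.0% of all tested genes. The log2 fold change was above 0 in 29 members and below 0 in 11, against 8956 above and 8765 below over all tested genes. Its median was 0.03 against 0.002 over all tested genes. Many members moved together from library to library, as described further on, and 24 changed sign in at least 1 of 18 alternative fits. The 29 are therefore not separate observations. Outside Cdkn1a the log2 fold change ran from -0.11 for Ccnb2, which is 7.25% lower, to 0.17 for Cenpe, 12.7% higher.

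The precision of the comparison sets how small a change could have been seen. The 95% interval of the log2 fold change lay within -0.25 to 0.25 for 28 of the 40 members, against 47.8% of all tested genes and 69.7% of the 9208 tested genes within the same range of mean CPM. In the other 12 members (Ccnb1, Ccnb2, Cdk1, Aurka, Bub1, Bub1b, Cenpe, Prc1, Ccnd1, Ccne1, Cdkn1a and Cdkn1c) an interval reached past that range, and in all of these but Cdkn1a it held 0. The lowest bound was -0.30 (Aurka) and the highest outside Cdkn1a was 0.35 (Cenpe), so larger changes than these lay outside the interval of every other member. How small a change could be seen differed by gene, from a standard error of 0.04 for Mcm4 to 0.13 for Cdkn1c.

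**Figure D2:**
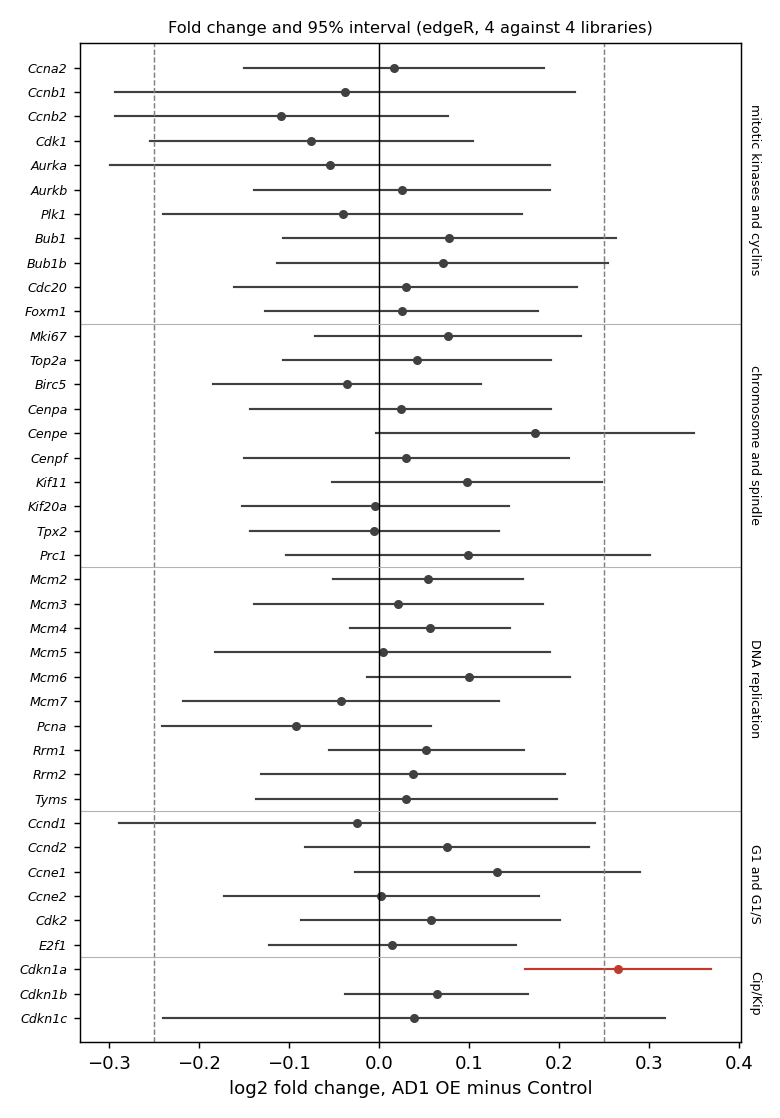
Log2 fold change of each member, AD1 OE minus Control (point), with its 95% interval (bar), from the edgeR fit over 4 and 4 libraries. Dashed lines mark -0.25 and 0.25, and Cdkn1a, with an interval of 0.16 to 0.37, is the one member drawn in red as called.

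Of the 11 mitotic kinases, cyclins and their regulators, none was called, 6 had a log2 fold change above 0 and 5 below 0, and the median was 0.02. Ccna2, cyclin A2, which works in S phase and G2, had the highest level of this group. It lay at 29.4, 37.6, 33.3 and 32.2 CPM in AD1 OE 1 to 4 and at 33.7, 33.6, 34.1 and 29.5 CPM in Control 1 to 4. AD1 OE 2 was the highest and AD1 OE 1 the lowest of the 8, and the groups overlapped (log2 fold change 0.02, SE 0.08, edgeR adjusted p = 0.941). Leaving out AD1 OE 2 turned this value to -0.05 and leaving out Control 4 turned it to -0.03. The B-type cyclins Ccnb1 and Ccnb2, their kinase Cdk1, the Aurora kinases Aurka and Aurkb, Plk1, the checkpoint kinases Bub1 and Bub1b, the anaphase activator Cdc20 and the factor Foxm1 had mean levels of 8.55 to 30.6 CPM. Ccnb2, which had the most negative value of all members and was singled out after its values were seen, lay at 14.9, 16.8, 17.3 and 14.6 CPM in AD1 OE and at 18.0, 16.6, 19.0 and 15.02 CPM in Control (edgeR adjusted p = 0.547). The 2 AD1 OE libraries 1 and 4 and Control 4 were low, and the groups overlapped.

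The 10 proteins of mitotic chromosomes, spindle and cytokinesis gave a like picture, with none called and a median of 0.04. Mki67 lay at 102, 125, 115 and 111 CPM in AD1 OE and at 106, 111, 116 and 95.7 CPM in Control, 113 ± 9.65 against 107 ± 8.70 (SD, n = 4 each). Control 4 was the lowest and AD1 OE 2 the highest library, and the other 6 were mixed (log2 fold change 0.08, SE 0.07, 95% interval -0.07 to 0.22, edgeR adjusted p = 0.608). Top2a followed the same order at the ends, with 101, 125, 113 and 111 CPM in AD1 OE and 112, 110.2, 118 and 97.7 CPM in Control (log2 fold change 0.04, SE 0.07, edgeR adjusted p = 0.805). Its sign turned when either of these end libraries was left out, to -0.01 in both cases. Cenpe, a kinetochore motor that was singled out after its values were seen, lay at 24.8, 31.7, 26.6 and 27.4 CPM in AD1 OE and at 25.0, 22.7, 27.0 and 23.2 CPM in Control. AD1 OE 2 stood highest and the groups overlapped (unadjusted p = 0.0541, edgeR adjusted p = 0.279). The remaining members, Birc5 (survivin), the centromere genes Cenpa and Cenpf, the spindle genes Kif11 and Tpx2 and the cytokinesis genes Kif20a and Prc1, had log2 fold changes of -0.04 to 0.10.

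The 10 replication members comprise the 6 subunits of the MCM helicase, the sliding clamp Pcna, both subunits of ribonucleotide reductase (Rrm1 and Rrm2) and Tyms. None was called, the median log2 fold change was 0.03, and all 10 intervals lay within -0.25 to 0.25. Rrm1, the member of highest level here, lay at 61.7, 69.5, 65.0 and 61.6 CPM in AD1 OE and at 66.2, 61.1, 60.25 and 60.9 CPM in Control (log2 fold change 0.05, SE 0.05, edgeR adjusted p = 0.636). AD1 OE 2 was the highest and Control 1 came next, and the groups overlapped. Pcna lay at 28.4, 31.5, 27.8 and 27.1 CPM in AD1 OE and at 34.0, 28.9, 28.5 and 30.8 CPM in Control, with Control 1 the highest and overlapping groups (log2 fold change -0.09, SE 0.07, edgeR adjusted p = 0.526). Mcm4 and Mcm2 were the steadiest members of all, with a coefficient of variation within groups of 1.99% and 2.97%. Mcm6 (log2 fold change 0.10, SE 0.05) had an interval of -0.01 to 0.21.

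Of the G1 and G1/S members, the D-type cyclins Ccnd1 and Ccnd2, the E-type cyclins Ccne1 and Ccne2, their kinase Cdk2 and E2f1, none was called, and 5 of the 6 had a log2 fold change above 0. Ccnd1, cyclin D1, lay at 91.6, 109.8, 85.1 and 78.2 CPM in AD1 OE and at 118, 86.7, 81.1 and 85.3 CPM in Control. Control 1 was the highest of the 8 libraries and AD1 OE 2 came next, while the other 6 lay between 78.2 and 91.6 CPM, so 1 library of each genotype stood apart. The log2 fold change was -0.02 (SE 0.12, 95% interval -0.29 to 0.24, edgeR adjusted p = 0.945), and without Control 1 it was 0.11. Control 1 also had the highest spinal cord genes, and AD1 OE 2 the highest erythroid genes; the part of these cells in the Ccnd1 values was not tested. Ccnd2 lay between 73.1 and 90.5 CPM, again highest in Control 1. Ccne1, at 11.2 to 14.2 CPM, had the largest log2 fold change of the 6, 0.13 (SE 0.07, edgeR adjusted p = 0.369).

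The Cip/Kip inhibitors were the members with the highest levels for their length together with Ccnd1, at the 83.2nd (Cdkn1b), 89.0th (Cdkn1a) and 95.7th (Cdkn1c) percentile of all tested genes per kilobase of exon. Cdkn1a encodes p21, the inhibitor that p53 induces and that also rises as cells differentiate. It lay at 97.8, 92.7, 104 and 89.9 CPM in AD1 OE and at 76.9, 82.0, 78.4 and 82.4 CPM in Control. Every AD1 OE library lay above every Control library, 96.1 ± 6.17 against 79.9 ± 2.7 (SD, n = 4 each). The log2 fold change was 0.27 (SE 0.05, 95% interval 0.16 to 0.37), a ratio of 1.2, with an adjusted p of 0.00484 by edgeR's quasi-likelihood test, just under the threshold of 0.005. The male libraries lay at 89.9 to 97.8 CPM in AD1 OE (3 libraries) and at 82.4 CPM in Control (1 library), and the female libraries at 104 CPM in AD1 OE (1 library) and at 76.9 to 82.0 CPM in Control (3 libraries). Groups that do not overlap keep their order in any such split, and with 1 library in an arm no test within a sex was made, so these values do not part the genotype from sex.

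This call stood close to its limit. It was lost when any 1 library except AD1 OE 4 was left out, with log2 fold changes of 0.23 to 0.28 and adjusted p-values of 0.00675 to 0.0195, and also with limma-voom (0.00633) and with a sex score in the fit (0.0121), while DESeq2 kept it (3.50e-05). Cdkn1a overlaps AC167363.2 on the other strand, whose 6 to 34 counts per library came to at most 0.903% of those of Cdkn1a. Cdkn1b (p27), the inhibitor of quiescent cells, lay at 79.2, 89.1, 80.1 and 77.4 CPM in AD1 OE and at 79.2, 78.5, 74.8 and 78.9 CPM in Control, and the groups overlapped (log2 fold change 0.06, SE 0.05, edgeR adjusted p = 0.516). Cdkn1c (p57), an imprinted inhibitor, was the most variable of all 40 members, with 114, 102, 113 and 84.4 CPM in AD1 OE and 132, 97.4, 85.3 and 89.7 CPM in Control. As in Ccnd1, Control 1 stood highest, and the groups overlapped (log2 fold change 0.04, SE 0.13, edgeR adjusted p = 0.916).

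**Figure D3:**
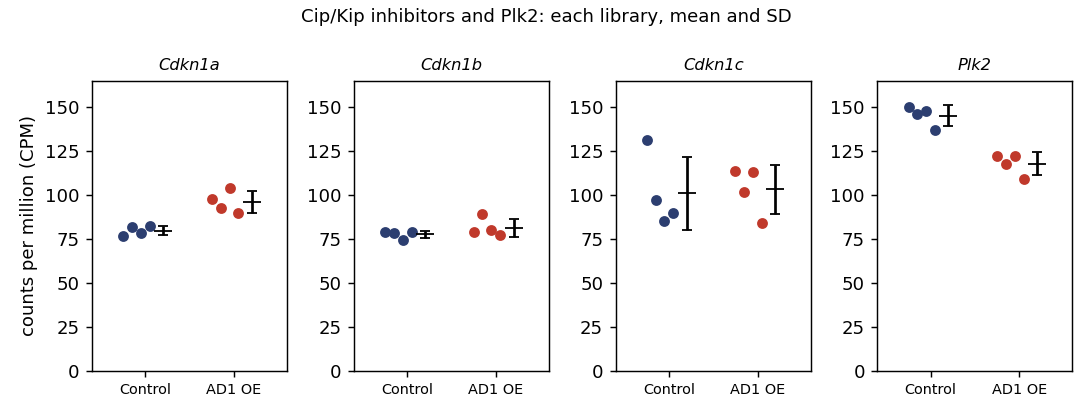
CPM of Cdkn1a, Cdkn1b, Cdkn1c and the p53 target Plk2 in each library, with the mean and SD of each group of 4 beside the points, on axes that start at 0. Cdkn1a lies higher in AD1 OE and Plk2 lower, each without overlap, and Cdkn1b and Cdkn1c overlap.

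Other genes of the same pathways were taken from 4 lists of known genes. Of 30 other S-phase genes, 0 were called in edgeR, 3 had an unadjusted p under 0.05, and the median log2 fold change was 0.04. The 3 were Hells, a chromatin remodeller of replicating cells, Tk1, thymidine kinase, and Gins2, a part of the replication fork. Hells lay at 27.2, 31.9, 29.3 and 29.4 CPM in AD1 OE and at 24.8, 24.1, 26.3 and 23.6 CPM in Control, without overlap (log2 fold change 0.25, edgeR adjusted p = 0.0263), and was called by DESeq2 but in no other of the 18 alternative fits. Tk1 (log2 fold change 0.25, edgeR adjusted p = 0.0552) and Gins2 (log2 fold change -0.21, edgeR adjusted p = 0.23) did not pass and had opposite signs. Of 30 other G2 and mitosis genes, 0 were called by edgeR and by DESeq2 and 0 had an unadjusted p under 0.05, with a median of 0.03. The largest value among them was that of Gas2l3 (0.25, SE 0.18, edgeR adjusted p = 0.526), a cytoskeletal gene with a level of 72.3 to 140 CPM that overlapped between the groups.

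Of 24 genes of the RB, E2F and cyclin D pathway, 22 could be tested and 0 were called by edgeR and by DESeq2. An unadjusted p under 0.05 was found in 2, Tfdp2, a partner of the E2F factors (log2 fold change 0.14, edgeR adjusted p = 0.211), and Cdkn2d, the inhibitor p19 (-0.12, edgeR adjusted p = 0.14). Cdkn2b, p15, had the largest value (0.16, SE 0.11, edgeR adjusted p = 0.478). Of 15 p53 targets, 14 could be tested, the median was -0.02 and 1 was called. This was Plk2, a polo-like kinase with a role at synapses, which lay at 122, 118, 123 and 109 CPM in AD1 OE and at 150.4, 146, 148 and 137 CPM in Control. All 4 AD1 OE libraries lay below all Control libraries, and Plk2 fell by 0.30 on the log2 scale (SE 0.05, edgeR adjusted p = 0.0014), the opposite direction to Cdkn1a. The call was lost without AD1 OE 2, Control 2 or Control 3 (adjusted p 0.00615 to 0.0068) and with the sex score (0.0146). The 13 other targets tested, among them Mdm2, Ccng1, Sesn1 and Zmat3, had no unadjusted p under 0.05. Over the 4 lists, 1.04% of the 96 genes tested were called by edgeR, against 2.57% of all tested genes. An unadjusted p under 0.05 was found in 6 of the 96 (6.25%), against 18.6% of all tested genes.

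The mitosis members were high or low together from library to library, across both genotypes. All 21 lay above their own 8-library mean in AD1 OE 2 and 19 of 21 in Control 3, whereas 1 of 21 did so in AD1 OE 1 and 0 of 21 in Control 4. AD1 OE 2 was the highest of the 8 libraries for 10 of the 21 (47.6%), against 16.0% of all tested genes, and Control 4 was the lowest for 11 (52.4%), against 8.98%. The erythroid genes had the same libraries at their ends. AD1 OE 2 was the highest for 7 of 7 (812 CPM summed) and Control 4 the lowest for 5 of 7 (224 CPM summed). Between the ends the orders differed. In AD1 OE 1 the erythroid genes summed to 408 CPM, with 7 of 7 above their mean, against 1 of 21 mitosis members. In AD1 OE 4 they summed to 237 CPM, with 0 of 7 above their mean, against 8 of 21 mitosis members. The part of erythroid cells in the mitosis values was not tested. Summed over the 21 genes, the level was 621, 752, 694 and 661 CPM in AD1 OE and 679, 665, 714 and 599 CPM in Control. The group values, 682 ± 55.4 and 664 ± 48.2 CPM (SD, n = 4 each), differed by less than either SD. Among the males the 3 AD1 OE libraries (621 to 752 CPM) lay above the single Control (599 CPM). Among the females the single AD1 OE library (694 CPM) lay within the range of the Control libraries (665 to 714 CPM). The single male Control, Control 4, had the lowest sum of the 8 libraries, so every AD1 OE library had to lie above it. With 1 library in an arm no test within a sex was made, and these values do not part the genotype from sex.

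**Figure D4:**
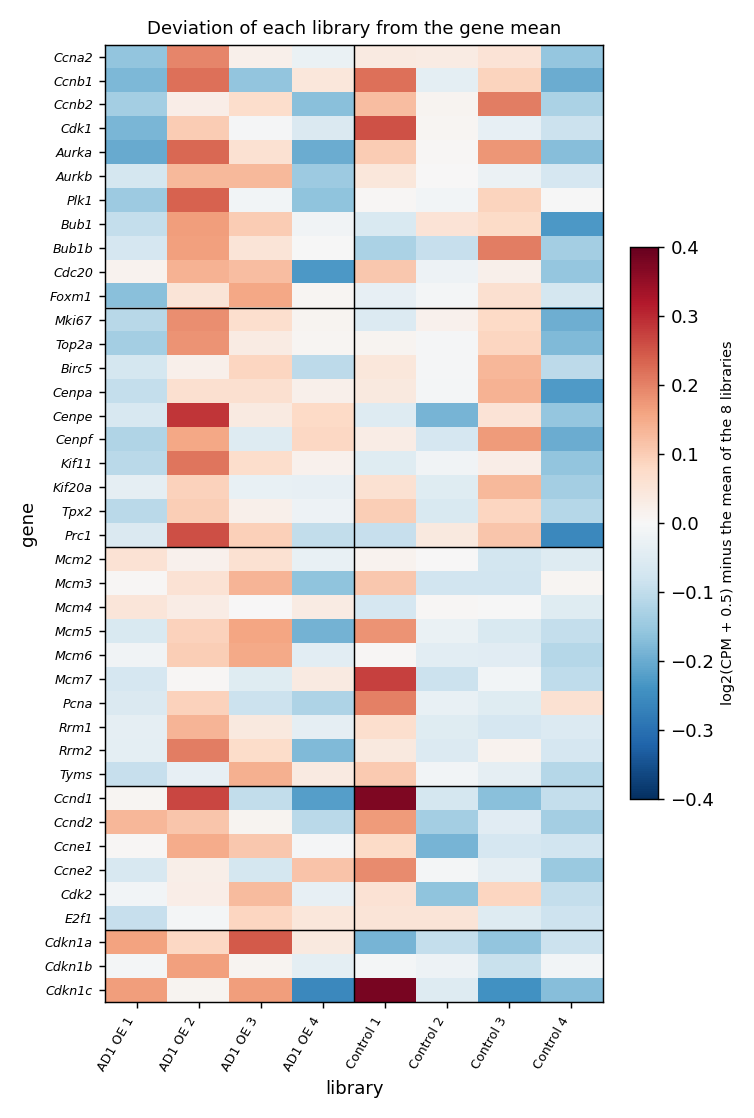
Each member (rows) in each library (columns) as log2(CPM + 0.5) minus the mean of that gene over the 8 libraries, red above and blue below the mean; the vertical line parts AD1 OE from Control and the horizontal lines part the role groups. The mitosis rows are red in AD1 OE 2, faintly so for Birc5 and Ccnb2. In Control 4 they are blue except for Plk1, which lies at its mean. The darkest red cells of Control 1 are Ccnd1 and Cdkn1c.

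The 30 other G2 and mitosis genes, which come from the same libraries, gave similar counts. Of these, 27 lay above their mean in AD1 OE 2, 27 in Control 3, 4 in AD1 OE 1 and 3 in Control 4, and AD1 OE 2 was the highest library for 22. The replication members followed another order, with 9 of 10 above their mean in AD1 OE 2 and in Control 1, 8 in AD1 OE 3, and 1 in Control 3. Control 3 was thus high for mitosis members and low for replication members. The 6 G1 and G1/S members were above their mean in 6 of 6 cases in Control 1, in 5 in AD1 OE 2 and in 0 in Control 4. Of the 12 genes of Schwann cells and satellite glia, 11 lay above their mean in Control 1 and 9 in AD1 OE 2. Their summed levels there, 1651 and 1661 CPM, were the highest of the 8 libraries (1331 to 1485 CPM in the others). The lowest glial sum, 1331 CPM, was that of AD1 OE 3, where 4 of 12 glial genes but 8 of 10 replication members lay above their mean. The part of glial cells in the members' values was not tested.

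The coefficient of variation of the members within genotypes had a median of 8.37%, against 7.26% over all tested genes and 5.57% over tested genes within the same range of mean CPM, and it was largest in the mitotic kinases and cyclins (median 9.77%). The ratio of the highest to the lowest library stayed under 1.5 in 38 of the 40 members, the other 2 being Ccnd1 (1.51) and Cdkn1c (1.56).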

How the data were processed

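Bulk poly(A) RNA-seq of E18.5 ganglia gave 8 libraries, grouped by the genotype in the labels. The authors aligned reads to GRCm39 with STAR 2.7.8a and ran featureCounts 2.0.1 on Ensembl genes, and the deposited files hold raw counts, 1 per library, with 0 lines that name no gene. The library kit marks strand; whether counting used it is not given in the sources used here, so the 12 members that share exons with a gene on the other strand, Cdkn1a among them, are uncertain to that extent, as are 3 (Foxm1, Top2a and Mcm7) that share exons on their own strand. Each library is labelled as a separate replicate. The p-values judge the difference between the genotypes against the spread between these libraries.

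Symbols and exon lengths came from GENCODE M21 (GRCm38), an older build, so no coordinates of the counted genes are given; 52081 of 55414 IDs had a symbol, and 211 of 212 listed genes were matched (Lin54 was not analysed here). Genes were kept with filterByExpr (17721), scaled by TMM and tested with edgeR 4.0.16 (R 4.3.3, quasi-likelihood F test, genotype only, Benjamini-Hochberg over all tested genes). Calls needed an adjusted p below 0.005 together with a log2 fold change beyond 0.25 in either direction, the study's limits for this contrast. Intervals are the log2 fold change ± t times its SE. Alternatives were DESeq2 1.42.0, limma-voom (limma 3.58.1), other scalings, filters and thresholds, a sex score, a replicate block and leaving out libraries; leaving out AD1 OE 2 and Control 1 together was added after seeing the data. The edgeR, DESeq2 and limma-voom fits were run on simulated counts with known changes before use. CPM values use TMM-scaled library sizes. Reads carried no molecular identifiers. Promoter letters were searched in the RefSeq table (32851 windows).

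The members and lists were chosen with earlier results of these data known. Values in every library are given for called members, those with an unadjusted p under 0.05, Mki67, Top2a, Pcna, the 3 inhibitors and the member of highest mean CPM in each role group; of other lists, for called genes or else the gene of largest change with a mean of at least 1 CPM. Genes outside this rule are named as chosen after their values were seen or by their unadjusted p.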

Additional observations from a re-analysis of the deposited data

Results flagged for a closer look

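Of 80 groups of 4 libraries (40 members, 2 genotypes) 7 had 1 library whose gap to the nearest other library took up more of the group's range than Dixon's 95% limit allows; chance gives about 1 in 20, or 4. Control 1 was the high one for Ccnd1 (118 CPM, next 86.7 CPM) and for Rrm1 (66.2 CPM, next 61.1 CPM). Control 3 was the high one for Bub1b (24.9 CPM, next 20.2 CPM) and Plk1 (11.4 CPM, next 10.7 CPM) and the low one for Cdkn1b (74.8 CPM, next 78.5 CPM). Control 4 was the low one for Ccna2 (29.5 CPM, next 33.6 CPM). AD1 OE 2 was the high one for Kif20a (21.1 CPM, next 19.3 CPM). Of the 7, 6 lay in the Control group.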

How the results depend on the processing

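The direction of Cdkn1a held in all 18 alternative fits and its call in 7 of them. No other member was called in any of these fits, and the largest absolute log2 fold change of an uncalled member in any fit was 0.23. The count of called members went from 1 to 0 with limma-voom, the sex score, the replicate block, the limit of an absolute log2 fold change over 1, and AD1 OE 2 and Control 1 left out together, and was 0 to 1 over the 8 fits that leave out 1 library. For Cdkn1a those fits gave 0.23 to 0.30 and the added fit 0.27, and its adjusted p ranged from 3.50e-05 to 0.021 over all alternatives. Called genes of the 4 other lists went from 1 to 2 with DESeq2 (Hells and Plk2) and with an adjusted p under 0.05 and no fold limit, to 0 with the sex score, with the fold limit of 1 and in the added fit, and were 0 to 1 leaving out 1 library. Called genes over the whole table went from 455 to 747 without an expression filter, 1161 at an adjusted p under 0.05 with no fold limit, 129 with a fold limit of 1, and 289 to 420 leaving out 1 library. The cause was not tested except where the limits or fewer libraries set it.

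Of the 40 members, 24 changed sign in at least 1 fit. Leaving out 1 library took Top2a over -0.011 to 0.094, Cdkn1c over -0.030 to 0.19, Ccna2 over -0.047 to 0.073 and Ccnd1 over -0.12 to 0.11. Leaving out AD1 OE 2 and Control 1 together gave -0.032 for Ccna2 and 0.015 for Ccnd1, and the sex score gave 0.013 for Ccnb2 and -0.019 for Gas2l3. Deviations of same-numbered libraries correlated at -0.02, -0.06, -0.03 and 0.33, and only AD1 OE 4 correlated best with its own number. The best Control matches of AD1 OE 1 to 4 were Control 4, 4, 1 and 4. AD1 OE 1, 2 and 4 were male, and Control 4 was the single male Control. Best matches thus shared sex, and these correlations cannot tell whether same-numbered libraries were paired. The replicate block called 348 genes in all, 0 members and 1 gene of the other lists (Plk2). Every member had at least 198 reads in every library.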
